A study of Mus musculus with 53 samples.

Results

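Lung tumours started by lentiviral vectors against Arid1a were compared with tumours started by inert vectors in the same mice, in 3 genotypes. The tumours were every listed lesion with the target label Arid1a in the mice given the pooled vectors and followed for 15 weeks, which gave 19194 Arid1a tumours of the 335123 listed in those 35 mice. The inert reference was the 91281 tumours labelled Inert in the same mice. No Arid1a tumour is listed in the 18 mice followed for 9 weeks, which had received single vectors, so 9-week mice were not used.

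Arid1a encodes a large DNA-binding subunit of the canonical BAF form of SWI/SNF, an ATP-driven complex that slides and ejects nucleosomes and so opens enhancers and promoters to transcription factors. The gene is lost or truncated in many human carcinomas, lung adenocarcinoma among them, and is classed as a tumour suppressor. In a mouse model it can be removed in the same cell that starts the tumour, and the size of the resulting clone then reports how the loss changed growth.

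The assay, Tuba-seq, counts the cells of each tumour from a DNA barcode. Each lentivirus, given through the trachea, brought Cre recombinase together with 1 sgRNA and a random barcode. Each infected lung epithelial cell that forms a tumour passes its barcode to its progeny, and the barcodes were amplified from DNA of whole lungs, with 1 library per mouse. By common strain naming, the 3 genotypes share, among other alleles, a fluorescent reporter (T) and a Cas9 allele (C), and the labels give only these letters. KTC mice (n = 10) carry nothing further, KPTC mice (n = 12) add floxed p53 (P), and KLTC mice (n = 13) add floxed Lkb1 (L), so Cre deletes p53 or Lkb1 in every tumour of those mice, the inert ones included. All 3 groups received the same treatment, Lenti-sgTS/Pool, which holds vectors against 11 tumour suppressors and inert sgRNAs. As a model this has limits that touch every value: Cre acts in any cell the virus enters, whole lung was extracted, and whether Arid1a was cut on both alleles in a given tumour cannot be read from these data. The labels call the cells lung epithelium progressing to adenocarcinoma, and a barcode table has no marker genes with which to check that. The labels give neither the sex nor the age of the mice.

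The deposited table gives 1 absolute size in cells per mouse, target and barcode, and every listed size is above 500 cells. The depth was the number of listed tumours. KTC mice held 8710 Arid1a tumours in all (lowest 45, median 856 and highest 1577 per mouse) beside 39940 inert tumours. KPTC mice held 8119 (198, 542 and 1960) beside 39164, and KLTC mice 2365 (28, 144 and 813) beside 12177. KLTC mice thus had the fewest Arid1a tumours per mouse, and their values carry the widest spread. In every mouse the listed sizes fell on whole multiples of a step, within 0.1 of a step. The step of a KTC mouse was 5.33 to 478 cells, that of a KPTC mouse 39.3 to 500 cells and that of a KLTC mouse 2.31 to 311 cells. In 6 pool mice the smallest listed tumour was 2 steps, so sizes near the lower limit are coarse there. The lower limit also differed between mice: the smallest listed tumour had 982 cells in KPTC replicate 12 and 935 cells in KTC replicate 5. Reading a step as what 1 sequencing read was worth is an inference, since the table holds no read counts.

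The largest Arid1a tumours are shown by barcode, since they carried much of the Arid1a tissue and since most of these barcodes were also listed in other mice. The barcode has 15 variable bases, given in capitals, in a fixed frame in lower case, and 92.6% of Arid1a tumours carried that frame. The 3 largest of each genotype were:
KTC replicate 3, 1656270 cells: aaCGGAGttACCTGaaCCGCG
KTC replicate 7, 1637750 cells: aaGCCCCttTGGGAaaAGCCG
KTC replicate 8, 1189500 cells: aaGGGGAttAACATaaTGTCG
KPTC replicate 12, 8837970 cells: aaTTTTGttTAGCCaaTGACA
KPTC replicate 9, 3332360 cells: aaTTGACttTAGCTaaTTGCC
KPTC replicate 10, 1811500 cells: aaAACATttTGCCTaaAATAA
KLTC replicate 12, 1974540 cells: aaTATCGttGGTCGaaGATCA
KLTC replicate 4, 1874160 cells: aaGTCGGttTGTTTaaAACTC
KLTC replicate 12, 1568060 cells: aaCGGGTttCGCAAaaCCGCA
The first of these made up 82.8% of all listed Arid1a cells of KTC replicate 3. The same barcode with the Arid1a label was listed in 19 other pool mice, next at 220932 cells in KPTC replicate 8, where it was again the largest Arid1a tumour, and at 206981 cells in KLTC replicate 3. The other 8 were listed in 2 to 15 other mice, at most at 32930 cells. The barcode of KTC replicate 7 was the rarest, with 2 other mice and 1445 cells at most. The largest KPTC barcode reached 5112 cells at most in its 11 other mice, and the largest KLTC barcode 4555 cells in 11.

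Such shared barcodes were common among large tumours. Whether each listing of a shared barcode was a separate tumour was not tested. Of the Arid1a tumours of at least 100000 cells, those with a barcode listed in another mouse made up 62.0% in KTC, 47.2% in KPTC and 88.3% in KLTC, against 15.6%, 19.0% and 48.0% of those of 500 to 1000 cells. The barcode of the largest Arid1a tumour of a mouse was listed elsewhere in 30 of 35 mice, and that of the largest inert tumour in 35 of 35. Over all sizes, 9.44% of 16508 distinct Arid1a barcodes were listed in 2 or more mice, against 23.6% of 64895 inert ones. Barcodes were compared within a label only, and the labels are unlike. Inert holds 91281 tumours against 19194 and covers several inert sgRNAs. How much this adds to the inert shares here and below was not tested. A small tumour was called matched where its target and barcode were listed at 10 times its size or more in another mouse. Matched tumours made up 3.85% of Arid1a and 6.98% of inert tumours in KTC, 3.02% and 6.85% in KPTC, and 25.6% and 26.4% in KLTC, with 71.9% of the Arid1a tumours of KLTC replicate 12. Results are therefore also given without them where that changes a call.

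In KTC mice, where the genotype leaves p53 and Lkb1 intact, Arid1a tumours were not called larger or smaller than inert tumours. The log-normal mean size, which is the mean size of a log-normal distribution fitted to the listed tumours of a mouse, was 1210 cells at the lowest, 2434 cells at the median and 3783 cells at the highest for Arid1a, and 1179, 2432 and 3624 cells for inert tumours. The ranges lay over one another almost fully. The log2 ratio of Arid1a to inert within a mouse ran from −0.05 to 0.13 with a median of 0.01, and was above 0 in 5 of 10 mice. Its mean was 0.02 ± 0.06 (SD, n = 10), a 1.01-fold ratio, with an adjusted p of 0.406 by the two-sided exact sign-flip test over mice. The 95% interval of the mean, −0.03 to 0.07, corresponds to 0.982-fold to 1.05-fold, so larger average effects in either direction lie outside it. In the same test 45.5% of the 11 targets were called larger than inert tumours. The sign of this small mean is not fixed: it was −0.05 without the largest tumour of each target and −0.01 for the median size.

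In KPTC mice, which lack p53 in their tumours, Arid1a tumours were larger by 1.11-fold. Their log-normal mean size was 1443 cells at the lowest, 2120 cells at the median and 5362 cells at the highest mouse, against 1360, 1823 and 5001 cells for inert tumours. The spread between mice was far larger than the shift, which shows only within mice. The ratio was 0.25 or more in replicates 2, 7 and 10 (0.25, 0.28 and 0.26), at or under 0.11 in replicates 3, 4, 8 and 12 (0.09, 0.03, 0.11 and 0.10), and below 0 in replicate 6 alone (−0.09), the mouse with the most Arid1a tumours, 1960. The mean was 0.16 ± 0.11 (SD, n = 12; higher in 11 of 12 mice; adjusted p = 0.0043, exact sign-flip test), with a 95% interval from 1.06-fold to 1.17-fold. In this genotype 72.7% of the 11 targets were called larger, so a call was the common outcome there. The mean was 0.16 in the 5 mice whose names have no letter prefix and 0.16 in the 7 with prefix IW, where the exact test alone gave an adjusted p of 0.0573. The mean fell to 0.10 without the largest tumour of each target, with the call kept (adjusted p = 0.0215, exact). The call was lost above 5000 cells (0.33, adjusted p = 0.214, exact) and without tumours whose barcode was listed in any other mouse (0.13, adjusted p = 0.0936, exact).

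In KLTC mice, which lack Lkb1 in their tumours, Arid1a tumours were not called different, and the mice disagreed with one another. Their log-normal mean size ran from 2426 cells to 85168 cells with a median of 20536 cells, and inert tumours from 1824 to 70047 cells with a median of 7932 cells. The log2 ratio was 2.2 in replicate 2, between 0.64 and 0.97 in replicates 1, 3, 4, 9 and 10, 0.14 and 0.15 in replicates 6 and 8, and between −0.67 and −0.21 in replicates 5, 7, 11, 12 and 13. Replicate 2 rested on 58 Arid1a tumours and the lowest, replicate 7, on 33. The mean was 0.34 ± 0.81 (SD, n = 13; above 0 in 8 of 13 mice; adjusted p = 0.306, exact sign-flip test), and 9.09% of the 11 targets were called larger. The 95% interval, 0.912-fold to 1.79-fold, holds no effect as well as one larger than the KPTC mean. By name prefix the mean was 0.59 ± 0.94 in the 7 IW mice and 0.06 ± 0.58 in the 6 ZR mice. The labels do not explain the prefixes. Without replicate 2 the KLTC mean was 0.19.

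**Figure D1:**
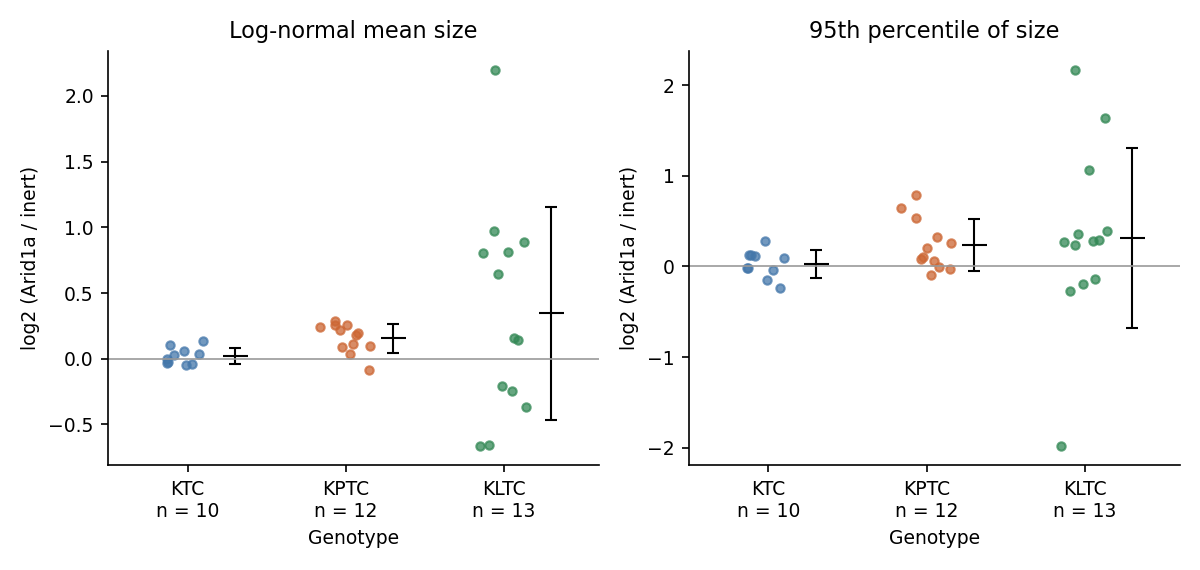
Log2 ratio of Arid1a to inert tumour size in each mouse (vertical axis) by genotype (horizontal axis), for the log-normal mean on the left and the 95th percentile on the right; points are mice, bars are mean and SD. KTC mice lie close to 0, 11 of 12 KPTC mice lie above 0 on the left, and KLTC mice spread from −0.67 to 2.2 there.

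Set against each other, the log2 ratio of Arid1a was 0.14 ± 0.04 (SE; 12 and 10 mice) higher in KPTC than in KTC (adjusted p = 0.0192, two-sided permutation test of mouse labels), a 1.10-fold change with a 95% interval of 1.04-fold to 1.16-fold. In that comparison 27.3% of the 11 targets were called higher in KPTC and 27.3% lower. The per-mouse values overlapped: KPTC replicates 3, 4, 6, 8 and 12 lay under the highest KTC value of 0.13. The difference kept its call without any single mouse. It lost it in 8 of 12 alternatives: within the IW mice (0.13, adjusted p = 0.0755, exact permutation test, 7 against 8 mice), at a minimum of 1000 cells (0.18, adjusted p = 0.0648, permutation test), 1500 cells (0.18, 0.173), 5000 cells (0.24, 0.546) and 5 steps (0.12, 0.0699), without tumours listed in another mouse (0.13, 0.197), for the median size (0.11, 0.27) and for the 99th percentile (0.42, 0.116), each pair being the difference and its adjusted p. The KLTC effect did not differ by the test from that in KTC (0.32 ± 0.23 SE, adjusted p = 0.425, permutation test) or in KPTC (0.19 ± 0.23 SE, adjusted p = 0.564, permutation test). Without KLTC replicate 2 these differences were 0.17 and 0.03. At the 99th percentile of size in place of the log-normal mean, KLTC minus KPTC turned to −0.78 and was called (adjusted p = 0.0463, permutation test). That percentile rests on unequal counts, with a median of 144 Arid1a tumours per mouse in KLTC against 542 in KPTC. The part of these counts in the −0.78 was not tested. The intervals of the log-normal mean, 0.874-fold to 1.82-fold and 0.819-fold to 1.60-fold, are wide. In these 2 comparisons 9.09% of targets were called higher and 18.2% lower in KLTC. Each genotype enters 2 of the 3 comparisons, so they are not independent.

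The shift in KPTC mice was greater in the upper part of the size distribution. At the median, the log2 ratio of Arid1a to inert was 0.09 ± 0.16 (SD, n = 12), above 0.005 in 6 mice and within 0.005 of 0 in the other 6. The median of these 12 ratios was 0.0047. The highest, 0.57, came from KPTC replicate 1 (1855 against 1252 cells), where the step was 315 cells. The geometric mean over mice of the 90th percentile was 4663 cells for Arid1a and 4152 cells for inert tumours (log2 0.17 ± 0.16, higher in 10 of 12 mice). At the 95th percentile it was 9549 and 8096 cells (0.24 ± 0.28, 9 of 12), and at the 99th percentile 52451 and 40288 cells (0.38 ± 0.47, 9 of 12). The mean ratio thus grew along the upper percentiles, as did its spread between mice, and a trend along them was not tested. For the 95th percentile the adjusted p was 0.017 (exact sign-flip test; 54.5% of targets called larger), and the interval 1.04-fold to 1.34-fold. Replicates 7, 10 and 11 were highest (0.53, 0.79 and 0.65), and all 3 were IW mice: the IW mean was 0.37 ± 0.30 (n = 7) and that of the 5 unprefixed mice 0.06 ± 0.11. The call was lost in 7 of 10 alternatives: without the largest tumours (0.19, adjusted p = 0.0606, exact), without matched tumours (0.17, 0.089), without tumours listed in another mouse (0.16, 0.334), within the IW mice (0.0573), and at minimums of 1000 cells (0.27, 0.0629), 5000 cells (0.42, 0.288) and 5 steps (0.24, 0.068).

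In KTC mice the profile stayed near 0 from end to end. The mean log2 ratio lay between −0.01 and 0.03 from the median to the 95th percentile and at −0.04 ± 0.36 at the 99th, and that at the 95th percentile did not pass (0.03 ± 0.15, 5 of 10 mice; adjusted p = 0.611, exact; 27.3% of targets called larger). KLTC mice rose from 0.11 ± 0.43 at the median to 0.53 ± 0.98 at the 90th percentile and were at −0.40 ± 1.07 at the 99th, where 4 of 13 were above 0. The 95th percentile of KLTC mice did not pass (0.32 ± 1.0, 9 of 13; adjusted p = 0.487, exact; 9.09% called larger). Replicate 7 was lowest there, at −1.99, with 33 Arid1a tumours. At the 99th percentile the largest 1 or few tumours of a mouse set the value wherever few Arid1a tumours are listed, as in most KLTC mice.

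**Figure D2:**
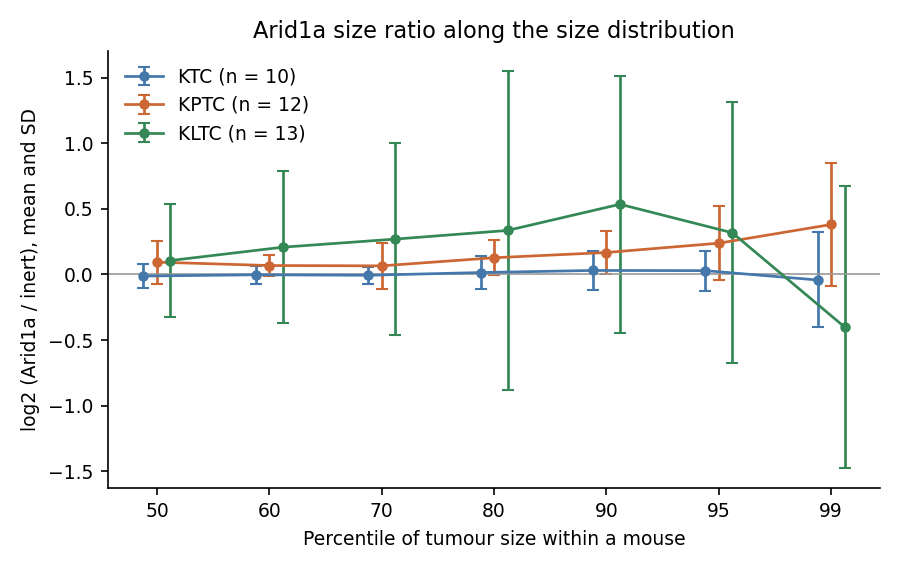
Mean log2 ratio of Arid1a to inert tumour size (vertical axis) at percentiles of size within a mouse from 50 to 99 (horizontal axis), with SD bars over mice and 1 line per genotype. KPTC climbs to 0.38 at the 99th percentile, KTC stays within −0.04 to 0.03, and the KLTC bars cover 0 at every percentile.

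The share of tumours above a fixed size gave a similar order. In KPTC mice the share of Arid1a tumours of at least 10000 cells was 1.85% at the lowest, 4.41% at the median and 10.98% at the highest mouse, against 1.97%, 3.45% and 10.8% of inert tumours. The means were 5.58 ± 3.07% and 4.66 ± 2.98% (SD, n = 12). The share was higher for Arid1a in 8 of 12 mice, by 0.924 ± 1.08 points (adjusted p = 0.0292, exact sign-flip test; 63.6% of the 11 targets called higher). This call rested on single mice: without any of KPTC replicates 1, 2, 7, 9, 10 or 11 the difference was 0.767 to 0.867 points and the adjusted p 0.051 to 0.0583 (exact). It was lost in 9 of 12 alternatives, among them the IW mice (1.15 points, adjusted p = 0.0645, exact) and a fixed size of 100000 cells (0.223 points, 9 of 12 mice, adjusted p = 0.0591, exact).

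In KTC mice the shares were 2.22%, 6.42% and 9.05% for Arid1a and 2.07%, 6.08% and 8.51% for inert tumours. The difference, 0.126 ± 0.528 points, was positive in 6 of 10 mice and did not pass (adjusted p = 0.509, exact sign-flip test; 36.4% of targets called higher). KLTC mice had the highest shares, 5.04%, 18.2% and 42.9% for Arid1a and 4.44%, 14.7% and 37.5% for inert tumours. The difference of 1.75 ± 4.30 points, positive in 9 of 13 mice, did not pass either (adjusted p = 0.248, exact), and none of the 11 targets passed there (0%; unadjusted, the exact sign-flip p of 3 was under 0.05).

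Tumours of at least 1000000 cells were rare. With Arid1a there were 3 in KTC, 4 in KPTC and 10 in KLTC, and with inert sgRNAs 12, 37 and 51. In KPTC this was 0.0493% of all Arid1a and 0.0945% of all inert tumours, and 2 mice had the higher share with Arid1a and 8 with inert. At 50000 cells the order was the other way, with 1.41 ± 0.843% against 1.06 ± 0.619% and a higher share for Arid1a in 10 of 12 mice. The difference in the top class, which rests on 4 Arid1a tumours, was not tested.

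**Figure D3:**
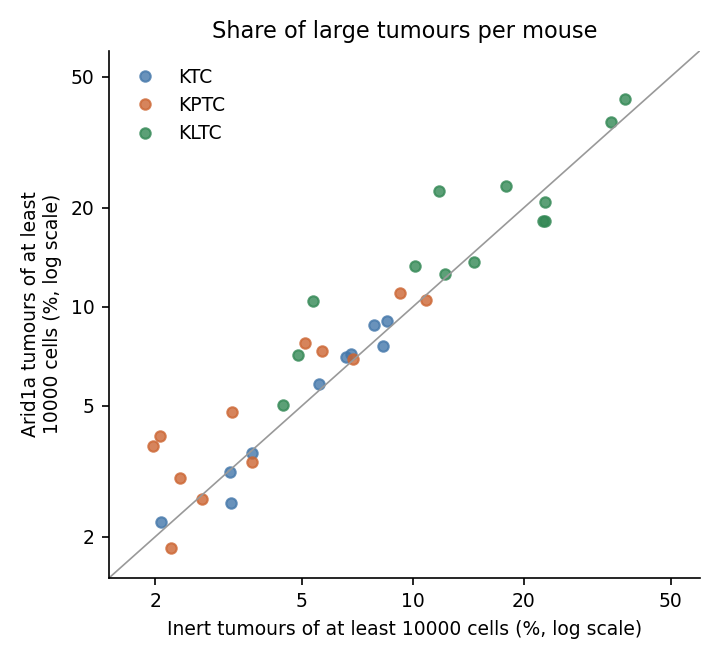
Share of Arid1a tumours of at least 10000 cells (vertical axis, percent, log scale) against the inert share in that mouse (horizontal axis, percent, log scale), with 1 point per mouse coloured by genotype and a line of equal shares. Most points lie close to the line; 8 of 12 KPTC points lie above it, and KLTC points reach the highest shares on both axes.

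The number of Arid1a tumours did not differ by the test between genotypes. There were 9.34, 21.8 and 22.4 Arid1a tumours per 100 inert tumours at the lowest, median and highest KTC mouse, 12.8, 20.2 and 24.0 in KPTC, and 9.76, 19.6 and 23.7 in KLTC. The ranges overlapped nearly in full. How much of each vector the pool held is unknown here, so only the difference between genotypes can be read. On the log2 scale it was −0.01 ± 0.14 (SE) for KPTC minus KTC, −0.10 ± 0.15 for KLTC minus KTC and −0.08 ± 0.12 for KLTC minus KPTC, with adjusted p of 0.932, 0.842 and 0.785 (permutation test). Of the 11 targets, 9.09% were called lower in KPTC than in KTC, 27.3% higher in KLTC than in KPTC, and none either way between KLTC and KTC (0%, with 3 at an unadjusted permutation p under 0.05). The 95% intervals reach from 0.758-fold to 1.20-fold over the 3 comparisons.

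The lowest number ratio of each genotype came from a mouse in which other targets were low as well. KTC replicate 9, with 45 Arid1a tumours and a step of 5.33 cells, had 9.34 per 100 inert. Its log2 ratio of −3.42 stood beside a median of −2.995 over the other 10 targets. In KLTC replicate 1 (9.76 per 100; step 2.31 cells) the log2 ratio was −3.36 beside −3.21, and in KPTC replicate 9 (12.8 per 100) −2.97 beside −2.57. Inert tumours made up 37.9%, 38.5% and 32.7% of all tumours in these 3 mice, against genotype medians of 26.6%, 26.3% and 27.6%. The part of that inert share in the ratio was not tested. Within the IW mice, which leave out KTC replicate 9, the number ratio of KLTC was lower than that of KTC by 0.39 on the log2 scale (−0.39; adjusted p = 0.00769, exact permutation test, 7 against 8 mice). They keep KLTC replicate 1. Without KTC replicate 9 alone it was −0.22 (adjusted p = 0.152, permutation test), against −0.10 with all mice. In the other alternatives, single left-out mice aside, this difference ranged from −0.21 to 0.02 and was not called.

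Arid1a made up a smaller mean share of listed cells than of listed tumours in each genotype. In KTC it was 5.50 ± 0.73% of tumours and 4.24 ± 2.22% of cells (SD, n = 10), in KPTC 5.59 ± 0.55% and 4.73 ± 1.97% (n = 12), and in KLTC 5.08 ± 0.63% and 4.64 ± 1.68% (n = 13). The share of tumours ranged less between mice, between 3.54% and 6.03% in KTC, 4.18% and 6.40% in KPTC, and 3.76% and 5.85% in KLTC. The share of cells ranged more widely, between 2.05% and 9.83% in KTC, 1.01% and 7.92% in KPTC, and 1.87% and 7.37% in KLTC. The share of cells also moves with every other target of the pool, so it is no test of Arid1a alone.

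Single tumours held much of the Arid1a tissue in some mice. The largest Arid1a tumour held 6.81% to 82.8% of the Arid1a cells of a mouse in KTC (median 12.6%), 7.56% to 85.2% in KPTC (median 24.8%) and 10.2% to 38.0% in KLTC (median 17.7%). KTC replicate 3, with 9.83% of its cells under Arid1a, was the mouse whose largest Arid1a tumour held 82.8% of them. KPTC replicate 9 was at 7.33% of cells with a tumour of 3332360 cells holding 85.2%, and in KPTC replicate 12 the largest held 52.2%. The ratio of summed Arid1a to summed inert cells did not differ by the test between genotypes, at −0.03 ± 0.28 (SE) for KPTC minus KTC, −0.18 ± 0.28 for KLTC minus KTC and −0.15 ± 0.26 for KLTC minus KPTC on the log2 scale (adjusted p = 0.912, 0.656 and 0.808, permutation test). In these comparisons 9.09%, 18.2% and 0% of targets were called lower, the last with 2 at an unadjusted permutation p under 0.05. The signs are not fixed: without the largest tumour of each target the 3 differences were 0.04, 0.06 and 0.01, and without KTC replicate 3 the first was 0.12.

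**Figure D4:**
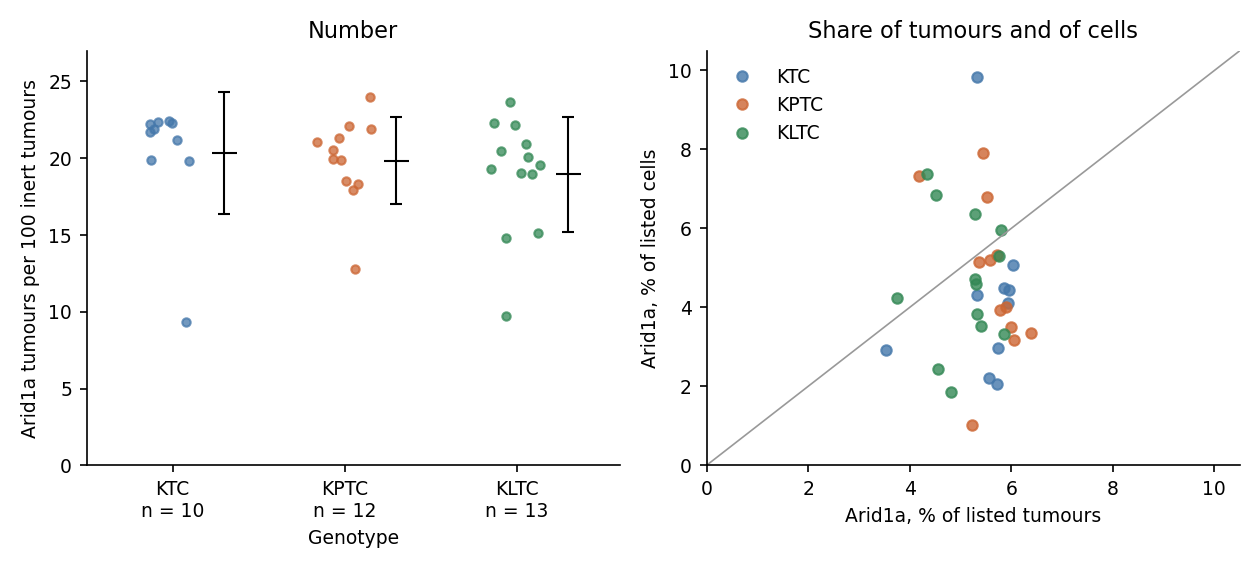
Left, Arid1a tumours per 100 inert tumours (vertical axis) by genotype, with points for mice and bars for mean and SD; right, the Arid1a share of listed cells against its share of listed tumours (both in percent), with 1 point per mouse and a line of equality. The lowest mice are at 9.34 in KTC, 12.8 in KPTC and 9.76, 14.8 and 15.2 in KLTC. Cell shares spread from 1.01% to 9.83% and tumour shares from 3.54% to 6.40%.

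Among the 11 targets, Arid1a ranked 9th by mean size ratio in KTC, 6th in KPTC and 2nd in KLTC. Within single mice its rank lay between 6 and 11 in KTC, 3 and 10 in KPTC, and 1 and 9 in KLTC, and it varied most in KLTC. Compared within mice, Arid1a was below 5 of the 10 other targets in KTC (50%): Setd2 by 1.20, Lkb1 by 0.98, Rbm10 by 0.24, Rb1 by 0.24 and APC by 0.17 on the log2 scale (the differences being −1.20, −0.98, −0.24, −0.24 and −0.17). The last 2 had an adjusted p of 0.0469 (exact sign-flip test). The count was 3 in 8 of the 10 runs that left out 1 mouse, those without KTC replicates 1, 2, 4, 5, 6, 7, 8 or 10. Its neighbours in that order, P53 above (0.06) and ATM below (0.01), did not differ from it by the test.

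In KPTC, Arid1a was below 3 of 10 (30%), Setd2 (difference −0.54), Rb1 (−0.33) and Lkb1 (−0.25), and above 1 (10%), P53 (0.19, in 11 of 12 mice; adjusted p = 0.0146, exact sign-flip test). Arid1a lay below Setd2, which methylates histone H3 on transcribed genes, in 12 of 12 mice. The P53 vector serves as a further control in this genotype, where Cre already deletes that gene, and its mean was −0.03. Its neighbours were Cdkn2a above (0.19) and ATM below (0.14), and neither differed by the test. None of the 4 differences was called when only tumours of at least 5000 cells or only the IW mice were used.

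In KLTC no target differed from Arid1a by the exact sign-flip test (0%), with 1, Lkb1, at an unadjusted p of 0.0249 (difference 0.61, Arid1a above it in 12 of 13 mice; adjusted p = 0.249, exact). The Lkb1 vector is the further control there. Its mean was −0.27 ± 0.65 (SD; above 0 in 3 of 13 mice) and was not called against inert (adjusted p = 0.306, exact sign-flip test). The difference of 0.61 thus includes a control mean below 0. APC (0.67) stood above Arid1a and Cdkn2a (0.34) below. Arid1a was the second highest by its mean, with an SD of 0.81 between mice. That SD is the spread of single mice and does not measure how well the order of the means is resolved. The paired test called none of the 10 differences.

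**Figure D5:**
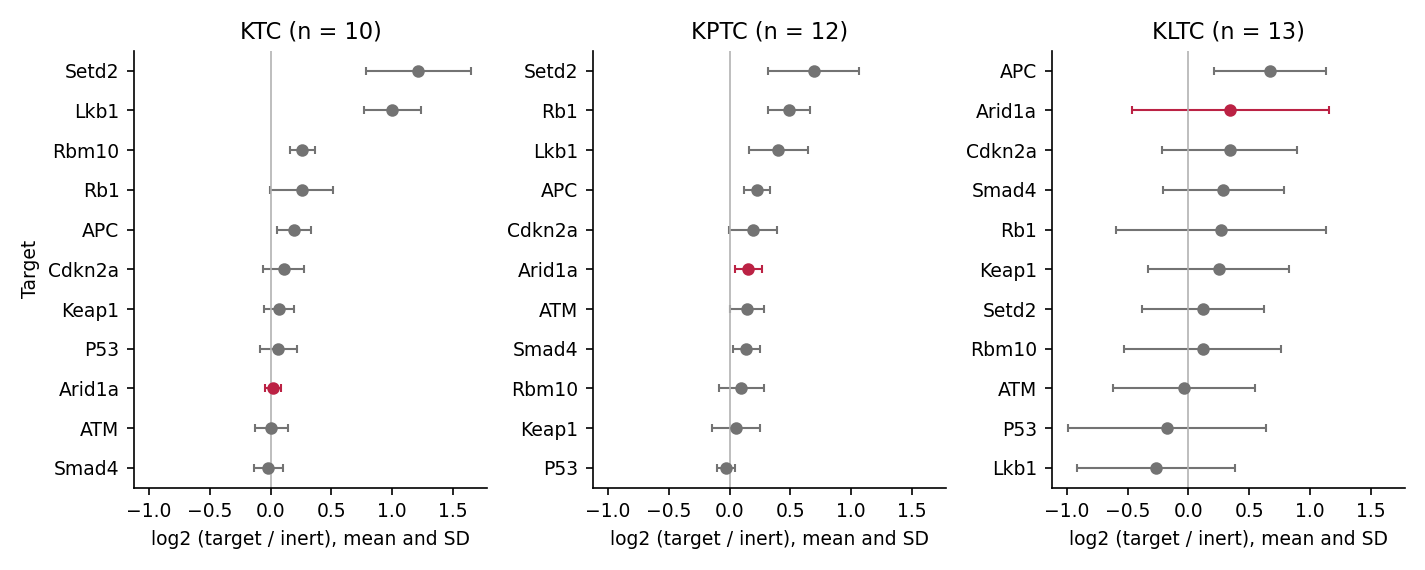
Mean log2 ratio of log-normal mean size over inert tumours (horizontal axis) for the 11 targets in each genotype, with SD bars over mice and Arid1a in red. Arid1a lies 9th of 11 in KTC at 0.02, 6th in KPTC at 0.16 and 2nd in KLTC at 0.34 with the bar of KLTC covering 0.

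Beside Arid1a, the list of chromatin and RNA-processing targets held Setd2 and Rbm10. Setd2 had a mean ratio of 1.22 in KTC, 0.69 in KPTC and 0.12 in KLTC, and Rbm10, a splicing regulator, 0.26, 0.10 and 0.12, beside 0.02, 0.16 and 0.34 for Arid1a. From KTC to KPTC the effect was lower by 0.52 for Setd2 (−0.52; adjusted p = 0.02) and by 0.16 for Rbm10 (−0.16; adjusted p = 0.0396) and higher for Arid1a, all by permutation test on the same mice and inert tumours. Smad4 (0.15, adjusted p = 0.0192) and Rb1 (0.23, adjusted p = 0.0375) were also called higher in KPTC by that test. No difference between targets in these steps was tested, and those to KLTC were not called for Arid1a or Rbm10. Of this list of 3 genes, 2 were called above inert in KTC (Setd2 and Rbm10), 2 in KPTC (Setd2 and Arid1a) and none in KLTC. Over all 11 targets the shares called larger were 45.5%, 72.7% and 9.09%. With only 3 genes, these counts are no result about the list.

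By Spearman rho over 35 mice, the per-mouse ratio of Arid1a was most like that of Smad4 (0.54), which relays TGF-beta signals. Next were Keap1 (0.48), an adaptor that targets a regulator of antioxidant genes for degradation, and ATM (0.38), a kinase activated by DNA breaks. By Pearson r the order differed, with Keap1 (0.73) above Smad4 (0.71), and APC (0.60) and Rb1 (0.55) above ATM (0.32). These values are descriptions, since the ratios within a mouse have 1 inert reference and 1 depth in common. Within genotypes the likeness was not even. For Smad4 rho was −0.37 in KTC, 0.52 in KPTC and 0.66 in KLTC, for Keap1 −0.47, 0.25 and 0.68, and for ATM 0.31, 0.15 and 0.42.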

How the data were processed

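The deposited table holds absolute cells per tumour, the authors' unit; per the labels' protocols barcodes were PCR-amplified from whole-lung DNA. For the aligner, barcode clustering, size standard and genome build: not given in the sources used here. Without read counts no counting interval can be had, and the number of mice limits the precision. The Arid1a label matched the gene symbol of the RefSeq table; barcode sequences come from the deposited table.

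Using Python 3.11.15 with numpy 2.4.6, pandas 2.3.3 and scipy 1.17.1, a log-normal mean (exponential of mean log size plus 0.5 times its variance) was computed per target and mouse with at least 10 tumours, and divided by that of inert tumours. Mouse values were tested with exact sign-flip tests within genotypes and by permuting mouse labels between them (100000 resamples, exact where a group had under 10 mice), with Benjamini-Hochberg adjustment over the 11 targets, or over the 10 others in comparisons with Arid1a, at 0.05. The 95% intervals invert the unadjusted tests. Scripts were tested on simulated data.

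Members, lists and tests were chosen with earlier results of these data known. Named targets were Arid1a, the chromatin and RNA-processing list, the neighbours of Arid1a in each order and those called different from it. The 3 targets most like it by Spearman rho were named too. The 3 largest Arid1a tumours per genotype were named by barcode. Alternatives were other minimum sizes, size measures and fixed sizes, leaving out largest tumours, matched tumours, mice or name prefixes. Chosen after seeing the data were a minimum of 5 steps or of 1500 cells, leaving out the 3 mice of lowest number ratio, and leaving out tumours listed in another mouse. In 2 cases a mouse, target and barcode were listed more than once, and both entries were kept.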

Additional observations from a re-analysis of the deposited data

Results flagged for a closer look

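KTC replicate 9 stood apart in its number of Arid1a tumours. Its log2 ratio of Arid1a to inert number was −3.42, and the gap to the next KTC mouse was 0.859 of the whole range of the 10 mice, above the 95% critical value of 0.466 of Dixon's test. Chance alone flags about 1 in 20 such groups for each measure, and several measures were checked. Only groups of at most 10 mice were checked, so KPTC and KLTC mice were not screened. The other 9 KTC mice lay between 19.8 and 22.4 Arid1a tumours per 100 inert tumours.

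The Arid1a size effect differed between KPTC and KTC mice by a log2 difference of 0.14 (adjusted p = 0.0192, permutation test of mouse labels). This call was kept without any single mouse but was lost in 8 of 12 alternatives, among them the IW mice and the median size.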

How the results depend on the processing

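No paired analysis was possible because the labels carry no replicate numbers that could pair mice of different genotypes; within a mouse, Arid1a was always paired with inert tumours. Of 228 alternative values, 158 kept direction and side of the threshold or, for counts of targets, stayed within 1.5 times the main count; the cause of the other changes was not tested. At least 30 tumours per target changed no call. Values below are log2, or percentage points for shares, or counts of targets differing from Arid1a. Minimum 1000 cells: 95th percentile −0.028 (KTC), 0.27 (KPTC, uncalled) and −0.25 (KLTC), KPTC share 1.58 (uncalled), size KPTC minus KTC 0.18 (uncalled), number 0.0055 (KLTC minus KTC) and 0.011 (KLTC minus KPTC), KTC targets 3. Minimum 5000: KTC share −0.226, KPTC size 0.33, 95th percentile 0.42 and share 4.97 (uncalled), KLTC 95th percentile −0.32, size 0.24 (KPTC minus KTC, uncalled), −0.078 (KLTC minus KTC) and −0.32 (KLTC minus KPTC), number 0.026 (KPTC minus KTC) and 0.017 (KLTC minus KTC), targets 2 (KTC) and 0 (KPTC). Minimum 1500: KPTC share 2.15 and size KPTC minus KTC 0.18 (uncalled), KLTC 95th percentile −0.38, number KLTC minus KPTC 0.0034, KTC targets 2. At least 5 steps: KPTC 95th percentile 0.24, share 1.02 and size KPTC minus KTC 0.12 (uncalled), number KPTC minus KTC 0.014. Without the largest tumours: KTC size −0.049, 95th percentile −0.083 and share −0.207, KPTC 95th percentile 0.19 and share 0.76 (uncalled), cells 0.044, 0.056 and 0.012. Without matched tumours: KTC size −0.0047, 95th percentile −0.028 and share −0.048, KPTC 95th percentile 0.17 (uncalled), KLTC targets 1. Without tumours listed in another mouse: KTC size −0.0048, 95th percentile −0.074 and share −0.169, KPTC size 0.13, 95th percentile 0.16 and share 0.537 and size KPTC minus KTC 0.13 (uncalled), cells 0.083, 0.21 and 0.13, KPTC targets 1. IW mice: KPTC size 0.16, 95th percentile 0.37, share 1.15 and size KPTC minus KTC 0.13 (uncalled), number KLTC minus KTC −0.39 (called), KPTC targets 0. Without the 3 mice of lowest number: KPTC share 0.844 (uncalled), cells KLTC minus KPTC 0.023. Median size: KTC −0.012, KPTC minus KTC 0.11 (uncalled). 99th percentile: KTC −0.042, KLTC −0.40, KPTC minus KTC 0.42 (uncalled), KLTC minus KTC −0.36, KLTC minus KPTC −0.78 (called, adjusted p 0.0463, permutation test). Fixed size of 100000 cells: share −0.0385 (KTC) and 0.223 (KPTC, uncalled).

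Leaving out 1 mouse at a time gave 0.767 to 1.04 for the KPTC share, −0.13 to 0.045 for number and −0.16 to 0.12 for cells KPTC minus KTC, 3 to 5 KTC targets and 0 to 1 KLTC targets (1 without KLTC replicate 5). KPTC size stayed at 0.14 to 0.18 and its difference from KTC at 0.12 to 0.16, with every call kept. KLTC mice held 28 to 813 Arid1a tumours each, and the part of depth in their spread was not tested. Tumours at or under 500 cells are not listed, so nothing is known here of lesions that stayed smaller. In KPTC replicate 12 and KTC replicate 5 the smallest listed tumours had 982 and 935 cells, so the limit was higher there.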
